A study of Mus musculus with 6 samples.

Results

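The microRNA (miRNA) hairpins miR-296, miR-151, miR-455, miR-342 and miR-744 of the mouse heart were described by the balance between the 5p and 3p arms that each one yields. These 5 of 771 hairpins listed with both arms were chosen by their measured counts, because one arm was higher and the other lower in adult than in embryonic libraries. Their 10 mature arms were found by name among 1952 mature miRNAs in the count table. The libraries were small RNA libraries from heart tissue of C57BL/6 mice, with cardiomyocyte given as the cell type. The 4 groups were adult LncSync-/- (2 libraries), adult wild type (2), e13.5 LncSync-/- (1) and e13.5 wild type (1), where e13.5 names a day of embryonic development and LncSync is the long non-coding RNA absent from the knockout (KO). miRNA counts hold no row for LncSync, so they cannot check its loss. The labels do not say whether the libraries came from separate animals or from pooled hearts, so p-values reflect only how these libraries scatter, and that scatter may be technical.

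A miRNA hairpin is cut out of a longer transcript by Drosha and then by Dicer, which leaves a duplex of a strand from the 5′ side (5p) and a strand from the 3′ side (3p). Usually one strand is kept in an Argonaute protein and the other is degraded. A miRNA finds its targets mainly through its seed, bases 2 to 8, and the arms of a hairpin carry different seeds, so a hairpin whose kept arm differs between tissues or stages supplies a different regulator from the same gene.

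Mature sequences from RefSeq (GRCm38.p6, the mm10 assembly) were matched for 8 of the 10 arms. They are shown because each switch of arm is a switch of seed. Capitals mark the seed.
miR-296-5p: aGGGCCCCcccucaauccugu
miR-296-3p: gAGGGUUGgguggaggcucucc
miR-455-5p: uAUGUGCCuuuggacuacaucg
miR-455-3p: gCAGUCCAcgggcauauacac
miR-342-5p: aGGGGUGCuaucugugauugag
miR-342-3p: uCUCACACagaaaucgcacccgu
miR-744-5p: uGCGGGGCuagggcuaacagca
miR-744-3p: cUGUUGCCacuaaccucaaccu
These 8 arms carried 8 distinct seeds. Only the seed of miR-455-5p occurred in another listed mouse miRNA, miR-5129-3p. The hairpins of miR-296, miR-342 and miR-744, also from RefSeq, show where the arms lie (capitals mark the 5p and 3p arms).
miR-296: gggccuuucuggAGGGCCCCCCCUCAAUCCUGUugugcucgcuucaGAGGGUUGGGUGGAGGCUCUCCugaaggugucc
miR-342: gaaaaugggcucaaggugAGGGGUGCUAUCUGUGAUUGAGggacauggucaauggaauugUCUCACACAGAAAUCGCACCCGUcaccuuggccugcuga
miR-744: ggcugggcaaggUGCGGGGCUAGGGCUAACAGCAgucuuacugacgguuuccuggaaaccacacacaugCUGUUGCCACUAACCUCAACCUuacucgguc

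In the GENCODE annotation of GRCm38, 4 of the hairpins lie in introns of protein-coding genes on the same strand. Mir151 (chr15:73254815-73254882, minus strand) lies in Ptk2, which encodes focal adhesion kinase, and also within the opposite-strand RNA gene 1700085D07Rik. Mir455 (chr4:63256851-63256932, plus strand) lies in the collagen gene Col27a1. Mir342 (chr12:108658620-108658718, plus strand) lies in Evl, which encodes an actin regulator of the Ena/VASP family, and Mir744 (chr11:65734733-65734832, minus strand) in Map2k4, which encodes a stress-kinase activator. Mir296 (chr2:174267047-174267125, minus strand) lies in no other annotated gene. It is 379 bp from Mir298 and 14112 bp from Nespas, an antisense RNA of the imprinted Gnas locus.

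Mature counts totalled 14347091 and 17608586 in the adult KO, 17933518 and 16794840 in the adult wild-type, 2671957 in the e13.5 KO and 8944553 in the e13.5 wild-type library. A count of 0 allows up to 3 counts, which is 0.167 to 0.209 CPM (the count as a share of all mature counts, on the usual CPM scale) in adults, 1.12 CPM in the e13.5 KO and 0.335 CPM in the e13.5 wild type. Intervals below cover counting error only. Cardiomyocyte markers (miR-1a-3p, miR-133a-3p, miR-208a-3p, miR-208b-3p and miR-499-5p, 5 of 5 detected in every library) summed to 26.8 to 38.6% of counts in adults and 9.85 to 14.6% at e13.5. They did not move as one. miR-133a-3p had 2140343 to 2785165 counts in adults against 3952 and 17221 at e13.5, while the shares of miR-1a-3p overlapped. miR-208b-3p went the other way, with 19 to 148 counts in adults against 337 and 3102 at e13.5. Markers of other cells moved with stage as well, by summed share of counts. Smooth-muscle and fibroblast markers (4 of 4 detected throughout) made up 7.295 to 11.64% in adults against 21.25 to 35.27% at e13.5. Nearly all of that sum was miR-143-3p. As a share of counts miR-145a-5p went the other way, with 53575 to 80989 counts in adults against 1999 and 10065 at e13.5. The shares of miR-199a-3p and miR-214-3p overlapped between stages. Epithelial markers (4 of 4) made up 0.00236 to 0.00501% against 0.135 to 0.194%, though the shares of miR-141-3p overlapped. The liver marker miR-122-5p made up 4.17e-05 to 0.000383% against 0.00451 to 0.0192%. Leukocyte markers (5 of 5) made up 0.0992 to 0.212% in adults against 0.00624 to 0.0114% at e13.5, though the shares of miR-142a-3p and miR-142a-5p overlapped. Erythroid markers (3 of 3) ranged from 0.555 to 2.18% against 0.0729 to 1.42%, and endothelial markers (2 of 2) from 1.65 to 3.11% against 1.63 to 1.90%. Most of the adult erythroid sum was miR-486a-5p. miR-451a had 794 to 5762 counts in adults, 20165 in the e13.5 KO and 3380 in the e13.5 wild-type library. As a share of counts, miR-451a in the e13.5 wild type lay within the adult range. Of 2 neuronal markers, miR-124-3p was at 0 in adult KO replicate 1 and in both e13.5 libraries, and the pair summed to 0.00738 to 0.0152% against 0.0237 to 0.0304%. The part of these cell types in the arm balance was not tested, and in bulk libraries fewer cells of a type and less RNA per cell cannot be told apart.

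miR-296 changed its dominant arm completely. Its 5p arm, known in human endothelial cells as a promoter of vessel growth, had 93 and 37 counts in the adult KO libraries, 64 and 72 in the adult wild types, 1 in the e13.5 KO and 2 in the e13.5 wild-type library. The 3p arm had 9 and 1 counts in the adult KO, 3 and 0 in the adult wild types, 717 in the e13.5 KO and 172 in the e13.5 wild-type library. Every adult library was therefore mostly 5p and both e13.5 libraries almost only 3p. The 5p share of the 2 arms was 91.2% (Wilson 95% interval 84.1 to 95.3) and 97.4% (86.5 to 99.5) in adult KO and 95.5% (87.6 to 98.5) and 100% (94.9 to 100) in adult wild type, against 0.139% (0.0246 to 0.785) in e13.5 KO and 1.15% (0.316 to 4.09) in e13.5 wild type. The 5p to 3p ratio was 10.3 (95% counting interval 5.22 to 23.3) and 37 (6.24 to 1500) in adult KO. In adult wild type it was 21.3 (6.98 to 106) in replicate 1. Replicate 2 had 0 counts of 3p, so its ratio was 24.0 against the floor of 3 counts. The counting interval for replicate 2 began at 19.0. At e13.5 the ratio was 0.00140 (3.53e-05 to 0.00780) in KO and 0.0116 (0.00140 to 0.0427) in wild type. The adult and e13.5 ratios did not overlap.

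The arms of miR-296 moved by unequal amounts. By mean CPM the 5p arm was 13.8-fold higher in adults, at 2.10 to 6.48 against 0.224 to 0.374 CPM, and the 3p arm was 675.5-fold lower, at 0 to 0.627 against 19.2 to 268 CPM. The 3p fold depended on single libraries: it was 90.3-fold without the e13.5 KO library, 1261-fold without the e13.5 wild type and 1925-fold without adult KO replicate 1, and the adult mean includes a count of 0. Both arms together made 2.16 to 7.11 CPM in adults and 19.4 to 269 CPM at e13.5. The hairpin was thus much scarcer in adults, and its adult ratios rest on 38 to 102 counts a library.

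miR-151 had the same direction at a far higher depth. The 5p arm was counted 32602 and 28567 times in adult KO, 50758 and 41579 times in adult wild type, 43 times in e13.5 KO and 252 times in e13.5 wild type. The 3p arm was counted 10472 and 6788 times in adult KO, 11157 and 11069 times in adult wild type, 21069 times in e13.5 KO and 24820 times in e13.5 wild type. The 5p arm held 75.7 and 80.8% of arm counts in adult KO and 82.0 and 79.0% in adult wild type, against 0.204% (0.151 to 0.274) in e13.5 KO and 1.01% (0.889 to 1.14) in e13.5 wild type. The ratio of 5p to 3p was 3.11 and 4.21 in adult KO, 4.55 and 3.76 in adult wild type, 0.00204 in e13.5 KO and 0.0102 in e13.5 wild type. The 4 adult values lay close together, with a log2 ratio of 1.95 ± 0.24 (SD, n = 4).

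The sum of the miR-151 arms overlapped between stages, at 2008 to 3452 CPM in adults and 2803 to 7901 CPM at e13.5. By mean CPM the 5p arm was 104-fold higher in adults and the 3p arm 8.90-fold lower, or 4.63-fold lower without the e13.5 KO library. At e13.5 the 5p arm thus stood at 16.1 CPM in the KO and 28.2 CPM in the wild type, beside 7885 and 2775 CPM for the 3p arm in the same libraries.

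miR-455, studied mainly in cartilage, ran the other way and also changed its dominant arm. Its 5p arm had 34 and 64 counts in adult KO, 31 and 61 in adult wild type, 755 in e13.5 KO and 2687 in e13.5 wild type. Its 3p arm had 1135 and 1407 counts in adult KO, 2174 and 1403 in adult wild type, 51 in e13.5 KO and 117 in e13.5 wild type. So 3p prevailed in each adult library and 5p in both e13.5 libraries. The 5p share was 2.91% (2.09 to 4.04) and 4.35% (3.42 to 5.52) in adult KO and 1.41% (0.992 to 1.99) and 4.17% (3.26 to 5.32) in adult wild type, against 93.7% (91.8 to 95.2) in e13.5 KO and 95.8% (95.02 to 96.51) in e13.5 wild type. In 5p to 3p terms these were 0.02996 and 0.0455 in adult KO, 0.0143 and 0.0435 in adult wild type, 14.8 in e13.5 KO and 23.0 in e13.5 wild type. By mean CPM the 5p arm was 103-fold lower and the 3p arm 5.65-fold higher in adults, and the 2 arms together made 81.5 to 123 CPM in adults against 302 to 314 CPM at e13.5.

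**Figure D1:**
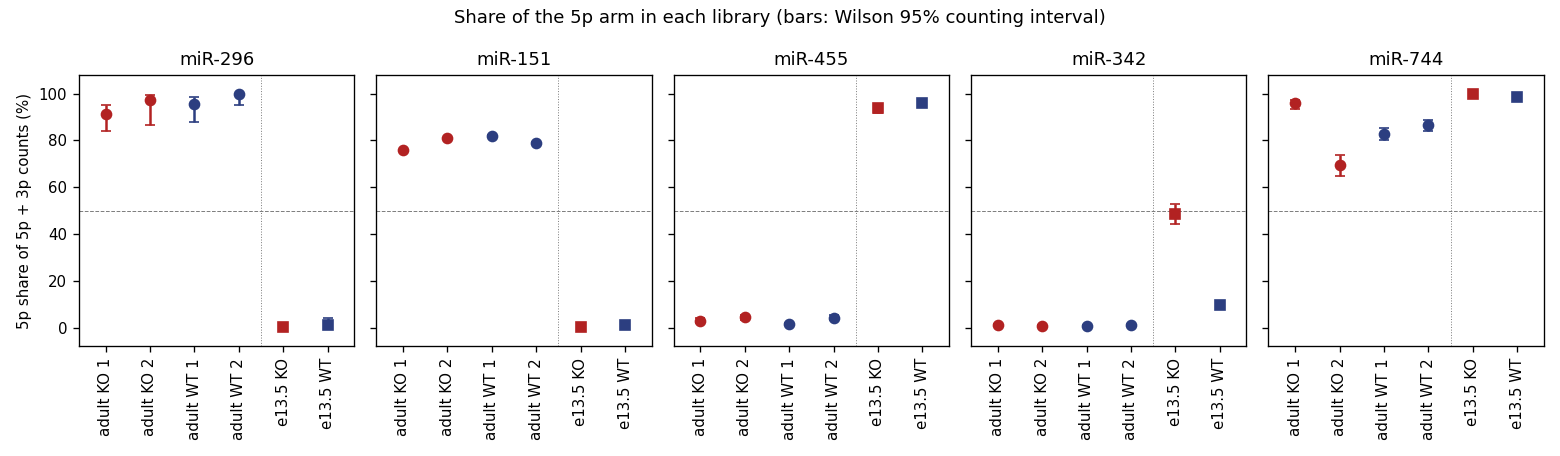
Share of the 5p arm in the summed 5p and 3p counts of each hairpin (percent, y axis) in each of the 6 libraries (x axis); circles are adult and squares e13.5 libraries, red KO and blue wild type, bars are Wilson 95% counting intervals and the dashed line is 50%. miR-296 and miR-151 are above the line in every adult library and near 0 at e13.5, miR-455 is the reverse, and miR-342 and miR-744 move without crossing the line.

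The other hairpins shifted without a clear change of dominant arm. For miR-342 the 5p arm had 61 and 15 counts in adult KO, 33 and 38 in adult wild type, 265 in e13.5 KO and 124 in e13.5 wild type. The 3p arm, known from immune cells, had 5430 and 2418 counts in adult KO, 4906 and 3459 in adult wild type, 280 in e13.5 KO and 1151 in e13.5 wild type. Adults were almost wholly 3p, and at e13.5 the 5p arm was close to parity in the KO and a minority in the wild type. The 5p share was 1.11% (0.866 to 1.42) and 0.617% (0.374 to 1.01) in adult KO and 0.668% (0.476 to 0.937) and 1.09% (0.793 to 1.49) in adult wild type, against 48.6% (44.5 to 52.8) in e13.5 KO and 9.73% (8.22 to 11.5) in e13.5 wild type. The 5p to 3p ratios were 0.0112 and 0.00620 in adult KO, 0.00673 and 0.0110 in adult wild type, 0.946 in e13.5 KO and 0.108 in e13.5 wild type.

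Most of the miR-342 shift lay in its minor arm. By mean CPM the 5p arm was 24.6-fold lower in adults, with 0.852 to 4.25 CPM against 13.9 to 99.2 CPM at e13.5. That fold was 6.02 without the e13.5 KO library and 43.1 without the e13.5 wild type. The 3p arm was 2.13-fold higher in adults, with 137 to 379 CPM against 105 to 129 CPM at e13.5, so the stages stood close but did not overlap. The sum of both arms overlapped, at 138 to 383 CPM in adults and 142 to 204 CPM at e13.5.

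miR-744 kept 5p as its main arm in every library. This arm had 428 and 282 counts in adult KO, 650 and 649 in adult wild type, 4181 in e13.5 KO and 892 in e13.5 wild type. The 3p arm had 19 and 124 counts in adult KO, 134 and 101 in adult wild type, 3 in e13.5 KO and 12 in e13.5 wild type. The 5p share was 95.7% (93.5 to 97.3) and 69.5% (64.8 to 73.7) in adult KO and 82.9% (80.1 to 85.4) and 86.5% (83.9 to 88.8) in adult wild type, against 99.9% (99.79 to 99.98) in e13.5 KO and 98.7% (97.7 to 99.2) in e13.5 wild type. As a ratio of 5p to 3p these were 22.5 and 2.27 in adult KO, 4.85 and 6.43 in adult wild type, 1394 (477 to 6761) in e13.5 KO and 74.3 (42.3 to 144) in e13.5 wild type.

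Opposite movement was least secure for miR-744. Its 3p level overlapped between stages, at 1.32 and 7.04 CPM in adult KO, 7.47 and 6.01 CPM in adult wild type, 1.12 CPM in e13.5 KO and 1.34 CPM in e13.5 wild type. Its 5p arm was 27.6-fold lower in adults by mean CPM, but that mean rested on the e13.5 KO library, at 1565 CPM beside 99.7 CPM in the e13.5 wild type, against 16.01 to 38.64 CPM in adults. The fold was 3.30 without the e13.5 KO library and 51.8 without the e13.5 wild type. In the fit that adjusts for genotype, its 5p log2 difference, adult minus e13.5, was −3.16 with both e13.5 libraries and −0.82 without the e13.5 KO library.

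**Figure D2:**
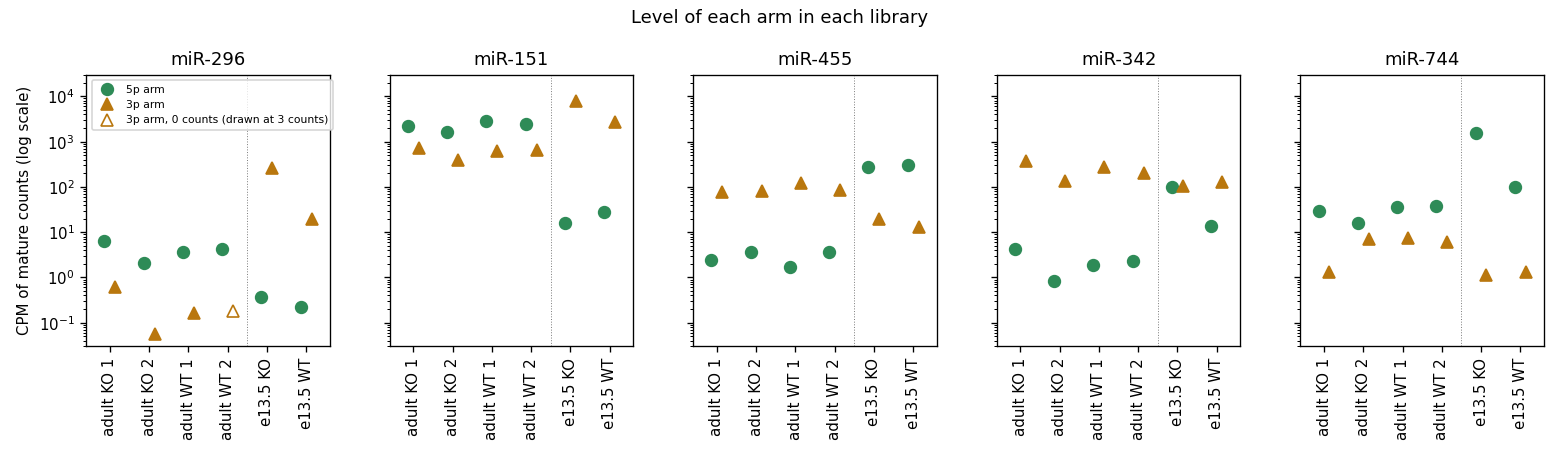
Level of the 5p arm (green circles) and the 3p arm (orange triangles) of each hairpin in each library, in CPM of mature counts on a log axis; the open triangle is a count of 0 drawn at the level of 3 counts. The arms cross between the adult and e13.5 libraries for miR-296, miR-151 and miR-455, meet in the e13.5 KO library for miR-342, and spread apart at e13.5 for miR-744.

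By log2 5p to 3p ratio (0.5 added to each count), adult minus e13.5 means over libraries, the 5 hairpins ranked by size as miR-296 (12.34), miR-151 (9.72), miR-455 (−9.22), miR-744 (−5.54) and miR-342 (−5.21). miR-151 and miR-455 are close in size, and miR-744 and miR-342 differ by less than the SD of 1.36 among adult miR-744 ratios. Within each genotype the sign was the same. In KO libraries the differences were 12.87, 10.78, −8.62, −7.40 and −6.80 in that order, and in wild-type libraries 11.80, 8.67, −9.83, −3.68 and −3.63. All these values chose the hairpins or come from the same contrast, so they are given without a test.

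As background, of 155 hairpins with at least 20 counts over both arms in every library, 101 (65.2%) had stage ranges of the ratio that did not overlap, and all 5 described here were among them. Dominance changed hands between all adult and all e13.5 libraries in 18 of the 155 (11.6%), of which 3 were miR-296, miR-151 and miR-455. The median size of the log2 ratio difference over the 155 was 2.64, and by size the 5 hairpins ranked 1, 3, 4, 16 and 19. An edgeR quasi-likelihood test of arm balance called 82 (52.9%) at a Benjamini-Hochberg adjusted p under 0.05, of which 29 leaned more to 5p in adults and 53 more to 3p. A stage difference in arm balance was thus common in this table. The count was 43 when the e13.5 KO library was left out, and 46 when its wild-type counterpart was.

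**Figure D3:**
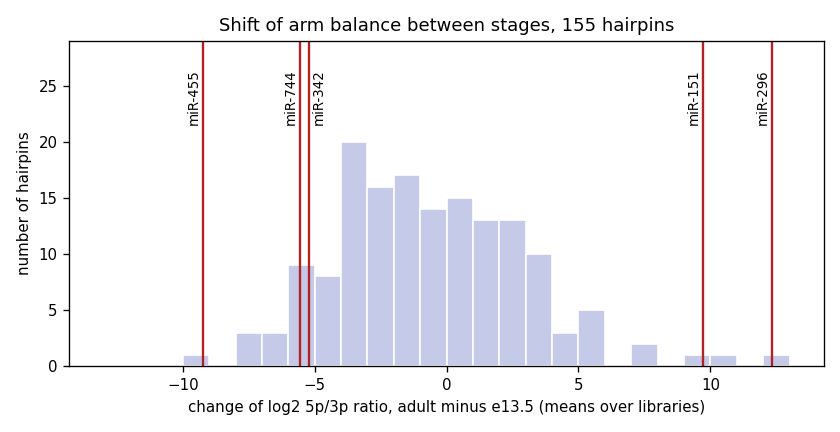
Number of hairpins (y axis) by the difference of the mean log2 5p to 3p ratio, adult minus e13.5 (x axis), for the 155 hairpins with enough counts; red lines mark the hairpins described. miR-296 (12.34), miR-151 (9.72) and miR-455 (−9.22) lie in the thin tails, and miR-744 (−5.54) and miR-342 (−5.21) on the left shoulder.

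Arm by arm, 392 of 679 tested miRNAs (57.7%) differed between stages in an edgeR fit with genotype as a term and TMM scaling, 28.4% higher and 29.3% lower in adults, and the 10 member arms were among them by choice. Their log2 differences, adult minus e13.5, were 4.73 for miR-296-5p and −7.81 for miR-296-3p, 7.73 for miR-151-5p and −1.95 for miR-151-3p, and −5.57 for miR-455-5p and 3.6 for miR-455-3p. For the remaining pairs they were −3.13 for miR-342-5p and 2.05 for miR-342-3p, and −3.16 for miR-744-5p and 3.24 for miR-744-3p. All tested miRNAs together had a median of 0.06 under TMM, −0.72 under median-of-ratios scaling and −0.93 under scaling to library totals. Each member arm kept its sign under all 10 alternative settings run. Ratios within a library do not depend on this scaling.

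Both arms passed in opposite directions in 12 of 185 hairpins with both arms tested (6.49%), 4 with 5p higher in adults (2.16%) and 8 with 3p higher (4.32%). The 7 beside the described ones were miR-20a, miR-542, miR-467d, miR-574, miR-10a, let-7e and let-7i, several of which have close relatives that can share reads. Just inside the threshold on both arms was miR-10a (5p −1.60, 3p 2.02), and among the described hairpins miR-744 was the nearest to it. Just outside were miR-532 (5p −4.56, 3p 1.67), miR-152 (5p −2.12, 3p 1.44) and miR-100 (5p −0.89, 3p 4.58). Under scaling by median of ratios or by totals 3 of the 5 still qualified, miR-296, miR-151 and miR-455. The same 3 did when either adult wild-type library was left out. When the e13.5 KO library was left out 2 did, miR-296 and miR-455, and when any other library was left out 4 did, without miR-744.

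**Figure D4:**
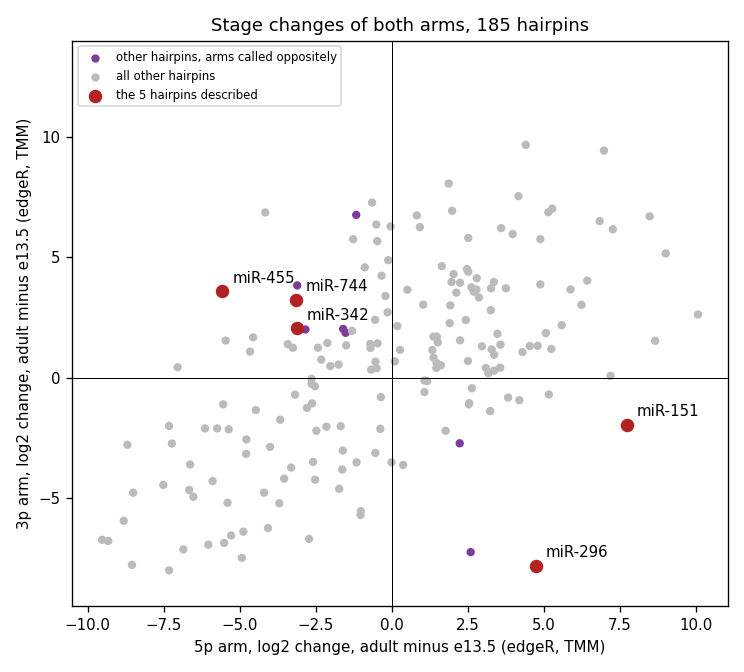
Log2 difference, adult minus e13.5, of the 5p arm (x axis) and of the 3p arm (y axis) for the 185 hairpins with both arms tested, from the edgeR fit with TMM scaling; red points are the 5 hairpins described and purple points the 7 others with both arms called in opposite directions. Most hairpins lie in the quadrants where the arms move together, miR-296 and miR-151 lie at lower right and miR-455, miR-342 and miR-744 at upper left.

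The genotype contrast was not used to choose the hairpins. In adults no arm tested passed. Of the 10 arms 9 passed the filter on low counts, and 0 of these differed between KO and wild type (edgeR quasi-likelihood test, Benjamini-Hochberg adjusted p = 0.999 for each), where 4 of 544 miRNAs passed in all (0.735%). At an unadjusted p under 0.05 the 9 gave 0 calls by edgeR (lowest 0.250, miR-744-5p) and 0 by DESeq2. Log2 differences, KO minus wild type, ran from −0.56 (SE 0.45) for miR-744-5p to 0.46 (SE 0.79) for miR-455-5p, and miR-296-3p was too rare to test. Adult CPM ranges did not overlap for miR-151-5p, miR-744-5p and miR-455-3p. miR-151-5p stood at 2272 and 1622 in KO against 2830 and 2476 in wild type. miR-744-5p stood at 29.83 and 16.01 in KO against 36.24 and 38.64 in wild type. miR-455-3p stood at 79.11 and 79.9 in KO against 121.2 and 83.54 in wild type. In the fit with TMM scaling their log2 differences were −0.23 (SE 0.40), −0.56 (SE 0.45) and −0.07 (SE 0.47) in that order. Scaled to library totals, as CPM is, they were −0.45 (SE 0.52), −0.71 (SE 0.60) and −0.36 (SE 0.55). The separation of miR-455-3p depended on scaling. Under TMM over all 6 libraries it stood at 82.28 and 140.8 in KO against 134.4 and 110.6 in wild type, which overlap. Ranges of 2 against 2 libraries often separate without a difference, and the share over all miRNAs was not counted. One library decided a value: miR-744-3p had a log2 difference of −0.19 (SE 0.92), which was −2.55 (SE 0.73, edgeR adjusted p = 0.0133) without KO replicate 2 and 0.67 without KO replicate 1. The KO replicates held 19 and 124 of its counts.

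Arm balance itself did not pass between adult genotypes. The edgeR test of the 5p to 3p ratio called 0 of 173 hairpins (0%), with 3 at an unadjusted p under 0.05, and limma called 0 with 3. For the 5 hairpins the change of log2 ratio, KO minus wild type, was −1.59 (SE 2.05) for miR-296, −0.19 (SE 0.76) for miR-151, 0.56 (SE 0.87) for miR-455, −0.01 (SE 0.76) for miR-342 and 0.29 (SE 1.14) for miR-744. The miR-296 value was −5.13 without wild-type replicate 1 and −0.36 without wild-type replicate 2. Their median was −0.01, beside 0.04 over all hairpins tested, and adult KO and wild-type ratios overlapped in each. These errors are wide, so differences of this size could not be told from 0. For miR-744, replicate 1 minus replicate 2, the log2 ratio differed by 3.28 in the adult KO and by −0.40 in the adult wild type. For miR-296 it differed by −1.34 in the adult KO and by −2.98 in the adult wild type. Over all 155 hairpins, 40 (25.8%) differed at least 4-fold between the adult KO replicates, and 14 (9.03%) between the wild types.

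At e13.5, with 1 library per genotype and no replicate check, 4 of the 5 ratios differed at least 4-fold between KO and wild type, where 32 of 155 hairpins did so (20.6%). KO minus wild type, the log2 ratio differed by −2.79 for miR-296 (95% counting interval −5.72 to 0.14), −2.30 for miR-151 (−2.77 to −1.84), 3.13 for miR-342 (2.77 to 3.49) and 4.06 for miR-744 (2.35 to 5.78). For miR-455 it was −0.64 (−1.13 to −0.15). In these 4 the KO library lay farther from the adults than the wild-type library did, and in miR-455 nearer to them. In 3 of the 4 most of the difference lay in one arm: miR-296-3p was 13.95-fold, miR-342-5p 7.15-fold and miR-744-5p 15.7-fold higher in the KO library by CPM, against KO to wild-type ratios of 1.67, 0.814 and 0.837 for their partner arms. In miR-151 the arms differed in opposite directions, with a KO to wild-type ratio of 0.571 for 5p and 2.84 for 3p. How a difference splits between the arms depends on scaling. Under TMM miR-151-5p stood at 7.432 in KO against 22.69 in wild type, and miR-151-3p at 3641 against 2235. The partner arms miR-342-3p and miR-744-3p then stood at 48.39 against 103.7 and at 0.5185 against 1.081. The e13.5 KO library was also the shallowest, and the part of depth in these differences was not tested.

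**Figure D5:**
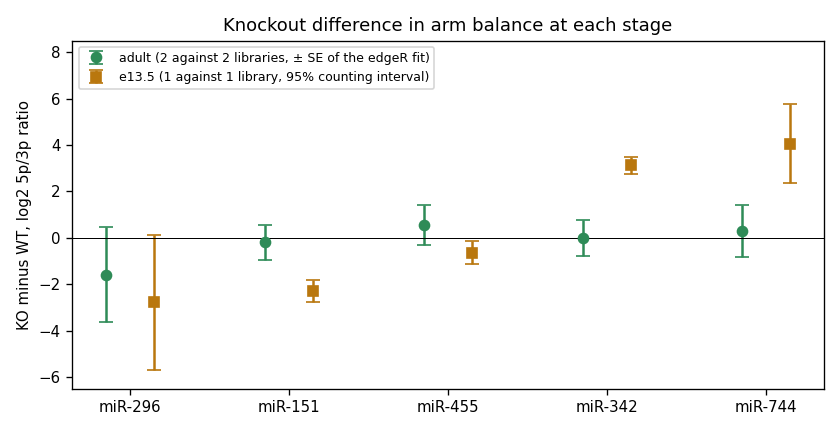
KO minus wild-type difference in log2 5p to 3p ratio (y axis) for each hairpin (x axis), in adults (green circles, bars are the SE of the edgeR fit, 2 against 2 libraries) and at e13.5 (orange squares, bars are 95% counting intervals, 1 against 1 library). The adult estimates span −1.59 to 0.56 and the e13.5 values −2.79 to 4.06.

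With both stages in one additive edgeR fit, 0 of 155 hairpins passed for genotype (0%), with 4 at an unadjusted p under 0.05, and limma called 0 with 4, of which one was miR-296 (−2.08, SE 0.91, limma unadjusted p = 0.0423, adjusted p = 0.976). Values for the described hairpins ran from −2.01 (SE 1.38) for miR-296 to 1.47 (SE 1.03) for miR-744, with an edgeR adjusted p of 0.990 throughout. When 1 library at a time was left out, these 2 values ran from −3.66 (without adult wild-type replicate 1) to −1.36 (without adult wild-type replicate 2), and from 0.28 (without the e13.5 wild type) to 2.78 (without adult KO replicate 2). The test of whether the genotype difference itself depends on stage also called 0 of 155 (0%), with 2 at an unadjusted p under 0.05, and limma called 0 with 7. In that test the adult difference less the e13.5 difference was −3.94 (SE 2.33) for miR-744, −3.15 (SE 1.60) for miR-342 and 2.12 (SE 1.13) for miR-151 (edgeR adjusted p = 0.771 for each). Its spread comes from the adult replicates alone, and each unreplicated e13.5 library is taken to scatter as much as they do.

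Few counts of these hairpins fell outside the arms. The hairpin entries exceeded the sum of the arms by at most 1.98%, in miR-342 of the e13.5 KO library (11 of 556 counts), against 0.391% (5 of 1280) in the e13.5 wild type. For miR-296 the excess was 0 in every library and for miR-151 at most 0.0304%.

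Neither the first base nor GC content ran one way in the printed sequences. The arm that gained share in adults was compared with its partner in the 4 hairpins with both sequences. For miR-744 it remained the minor arm. The gaining arm began with A for miR-296-5p, G for miR-455-3p, U for miR-342-3p and C for miR-744-3p. That arm had the higher GC content in 2 of 4, and in 60 of 126 hairpins with sequences for both arms (47.6%). GC content was 66.7% against 68.2% in miR-296 (gaining arm first) and 57.1% against 45.5% in miR-455. It was 52.2% against 50% in miR-342 and 50% against 63.6% in miR-744.

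The hairpins whose ratio profile over the 6 libraries lay nearest were sought among 74 others with at least 10 counts on each arm in every library, by root-mean-square distance of centred log2 ratios. miR-542 was nearest to miR-296 (distance 2.21) and to miR-151 (1.38). Its 5p share was 79.6 and 22.7% in adult KO, 50 and 52.5% in adult wild type, 0.0806% in e13.5 KO and 0.0942% in e13.5 wild type. miR-532 was nearest to miR-455 (1.57), but kept 5p as its main arm, at 87.34 to 94.14% in adults against 99.85 and 99.92% at e13.5. miR-379 was nearest to miR-342 (0.61) and to miR-744 (1.21), with a 5p share of 92.5 to 94.5% in adults against 99.5 to 99.8% at e13.5. Because ratios were centred, the distance ignores which arm dominates.

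Relatives and hairpins of similar kinds did not move as one. Of 3 relatives of miR-151 in the mir-28 family (miR-28a, miR-28c and miR-708), only miR-28a had enough counts for the arm-balance fit. Its 5p share was 45.9 and 68.5% in adult KO, 61.4 and 67.6% in adult wild type, 40.7% in e13.5 KO and 47.9% in e13.5 wild type. It did not pass for stage (log2 ratio difference 0.99, SE 0.92, edgeR adjusted p = 0.349). Arm by arm, both arms of miR-708 were lower in adults, by log2 differences of −5.28 for 5p and −6.56 for 3p. The next counts are of shifts from e13.5 to adults, whichever arm prevails. Of 11 hairpins listed for 2 abundant arms, 2 shifted toward 5p, 4 shifted toward 3p and 5 did not pass. Their median was −0.99 beside −0.99 over all 155. Among them miR-574 had a 5p share of 9.43 to 16.7% in adults against 80.7% in both e13.5 libraries, and miR-361 58.1 to 67.7% against 3.56 and 9.96%. Of 15 listed hairpins in protein-coding hosts, like 4 of those described, 12 had enough counts. Of these, 4 shifted toward 5p and 1 toward 3p in adults and 7 did not pass, with a median of 0.50.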

How the data were processed

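Small RNA libraries were made from TRIZOL-extracted, DNase-treated total RNA with the NEXTFLEX Small RNA kit, per the labels' protocols. The authors deposited raw whole-number counts for hairpins and mature miRNAs, 1 column per library. Counting used the mm10 build, according to the submitters' processing notes. Which aligner was run, with what trimming, mismatches and handling of shared reads, is not given in the sources used here. The 1974 mature features were used, after merging 22 whose counts agreed within 1% (total of at least 20, in at least 3 libraries). Changes by stage are given as adult minus e13.5. Member hairpins and lists were chosen with earlier results of these data known.

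Arm counts went into edgeR 4.0.16 under R 4.3.3 (TMM, filterByExpr with a minimum count of 10, glmQLFit, two-sided glmQLFTest), on the 4 adult libraries for genotype and on all 6 for stage with genotype as a term. Arm balance used 5p and 3p counts as 2 columns per library, a term per library and an arm by group term, for hairpins with at least 20 counts over both arms in every library and 10 per arm in total. The spread is taken from 2 or 3 residual degrees of freedom, moderated across features. DESeq2 1.42.0, limma 3.58.1, other scalings and filters, a replicate block and left-out libraries were alternatives. The adult arm test and the arm-balance tests of adult genotype, of genotype over both stages and of stage were run on simulated data first. All 10 arms are named. Other hairpins were named by rank of the smaller arm difference, nearness to the threshold or nearness of profile. Replicate numbers in adults did not pair the libraries.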

Additional observations from a re-analysis of the deposited data

How the results depend on the processing

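Counts of calls moved with single libraries. Leaving out 1 library at a time, adult genotype calls among arms ranged from 5 to 47, stage calls among arms from 261 to 381, hairpins with arms called oppositely by stage from 3 to 11, and stage calls of arm balance from 43 to 93. Calls of arm balance ranged from 0 to 5 for adult genotype (5 without KO replicate 2), from 0 to 4 for genotype over both stages (4 without adult KO replicate 2) and from 0 to 1 for genotype by stage (1 without adult KO replicate 1). No member hairpin was among the arm-balance calls for genotype. Where 1 library is left in a group, it is assumed to vary like the others. Adult genotype calls among arms were 35 without KO replicate 1, 47 without KO replicate 2 and 9 without the low-count filter, against 4. DESeq2 gave 20 hairpins with opposite arms, against 12, and the cause was not tested.

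Member values between genotypes that changed sign when 1 library was left out ranged as follows on the log2 scale. Adult arm differences ran from −0.32 to 0.5 for miR-296-5p, −0.42 to 1.13 for miR-455-5p, −0.58 to 0.26 for miR-455-3p, −0.68 to 0.82 for miR-342-5p, −0.19 to 0.45 for miR-342-3p and −2.55 to 0.67 for miR-744-3p. Adult ratio differences ran from −0.41 to 0.03 for miR-151, −0.23 to 1.37 for miR-455, −0.47 to 0.38 for miR-342 and −1.29 to 2.01 for miR-744. Over both stages they ran from −0.4 to 0.56 for miR-455 and −0.02 to 1.58 for miR-342, and for genotype by stage from −1.7 to 2.69 for miR-296. Further values did not change sign but moved by over 1.5 times. Among adult arm differences, miR-151-5p ran from −0.44 to −0.11 and miR-151-3p from −0.23 to 0. The adult ratio difference of miR-296 ran from −5.13 to −0.36, the differences over both stages from −3.66 to −1.36 for miR-296, −1.2 to −0.19 for miR-151 and 0.28 to 2.78 for miR-744, and those for genotype by stage from 0.4 to 2.01 for miR-455 and −5.52 to −2.22 for miR-744. The stage folds of mean CPM, left out one library at a time, were an alternative chosen after seeing the data. Other settings reversed none of the member values computed. miR-296 had too few counts for a value at the 100-count minimum. A pseudocount of 5 moved the miR-296 stage difference of summed counts to 10.72.

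Replicate numbers paired no libraries (correlation of same-numbered deviations 0.00368 over 544 miRNAs). With a replicate block, 5 arms and 0 arm balances passed in adults.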
